A study of Bos taurus with 36 samples.

Results

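The T cell receptor complex genes described here are 10 of the 35092 genes in the bovine count table: CD3D, CD3E, CD3G and CD247 for the signalling subunits of the complex, CD4, CD8A and CD8B for the coreceptors, CD2 for an adhesion receptor, and LCK and ZAP70 for the kinases that act first. They were chosen by symbol, as the rows whose Entrez identifiers carry these names in RefSeq, and all 10 were found. On Day 42 of pregnancy RNA was taken from 3 organs of 10 male fetuses (heart, gonads and liver) and from blood of each dam. In the group ET_D7, embryos aged 7 days went into 5 heifers at the same day of the cycle, and in the asynchronous group ET_D9, embryos of that age went into 5 heifers at Day 9. Heifers and fetuses are numbered by fetal weight, from 1 (1.253 g) to 10 (1.69 g), and every ET_D9 fetus was heavier than every ET_D7 fetus, so that weight and transfer group are largely confounded. The heart of fetus 7, the gonads of fetus 2 and the livers of fetuses 6 and 7 have no library, which left 36 libraries.

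The T cell receptor recognizes antigen through a pair of variable chains that cannot signal by themselves. They assemble with the CD3 subunits gamma, delta and epsilon and with the zeta chain encoded by CD247, whose cytoplasmic tails are phosphorylated by LCK and then bind ZAP70. CD4 and CD8 bring LCK to the receptor and mark helper and cytotoxic alpha beta T cells. Cattle carry many gamma delta T cells in blood, most of which bear WC1 scavenger receptors and lack CD4 and CD2. CD247, LCK, ZAP70, CD2 and CD8A are also transcribed in natural killer cells, whereas the CD3 subunits on the cell surface define T cells.

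Total counts ranged from 26602415 to 40812354 in blood and from 18231089 to 39649051 in the organs. Of 630 pairs of libraries, 2 differed by less than sampling noise, the gonads of fetuses 6 and 8 and the livers of fetuses 1 and 2, and each pair was counted as 1 sample, which left 8 gonad and 7 liver samples. The libraries labelled gonads held PAX2 (117 ± 11.9 CPM, SD, n = 8) and PAX8 (83.7 ± 10.3 CPM), transcription factors of the mesonephros. The gonadal genes NR5A1 and SOX9 were at 0.700 ± 0.304 CPM and 3.12 ± 1.79 CPM. Against heart, 6 of 8 mesonephros genes were called higher in gonads and 1 lower (edgeR, adjusted p under 0.05). Of 8 gonad genes tested, 2 were called higher and 4 lower. Against liver these were 4 and 3 mesonephros genes, and 1 and 2 gonad genes. Of all genes, 56.9% and 72.6% were called in these contrasts. MYH7, a myosin of heart and slow muscle, was 11018 ± 1678 CPM (n = 9) in heart, but blood of heifers 2 and 5 also held it, at 3356 and 1097 CPM, against at most 17.0 CPM in the other blood libraries. CPM are counts scaled to a common library total with edgeR's TMM factors. Unless stated otherwise, blood levels were scaled over the blood libraries alone and organ levels over all tissues. Levels of different genes were not compared, since CPM depends on transcript length. Sums of CPM over a list weigh its highest genes most and are compared between libraries only.

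All 10 members were well covered in maternal blood, with 670 to 25530 counts in each library. Normalized over the 10 blood libraries, their spread between heifers ran from below that of the median gene to about equal to it. Their coefficients of variation were lowest for CD3G (13.0%) and highest for CD2, and all were below the median of 20.1% over the 16284 genes tested in blood. The highest heifer exceeded the lowest by 1.52-fold (ZAP70) to 2.05-fold (CD2). The summed level of the 10 members ranged from 1478 CPM in heifer 2 to 2160.0 CPM in heifer 10, with a median of 1843 CPM. In a bulk library, fewer T cells and less RNA of these genes per T cell cannot be told apart.

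The CD3 subunits had the same lowest heifer but different highest ones. CD3D, the delta chain, was lowest in heifer 2 (62.8 CPM), had a median of 75.7 CPM and was highest in heifer 9 (97.9 CPM). CD3E, the epsilon chain that pairs with either of the others, ranged from 234 CPM in heifer 2 over a median of 319 CPM to 362 CPM in heifer 5. CD3G, the gamma chain, ranged from 70.1 CPM in heifer 2 over a median of 102 CPM to 116 CPM in heifer 4. Heifer 2 was thus lowest for each of the 3 chains, and also for CD247, the zeta chain, which ranged from 179 CPM over a median of 261 CPM to 312 CPM in heifer 9. Heifer 2 is the heifer with the most MYH7 in its blood library. Summed over the heart list, which holds 8 genes, its library had 3595 CPM, heifer 5 had 1206 CPM and the other 8 had 0.343 to 19.6 CPM, while the defining heart gene TNNT2 was at 0.186 CPM in heifer 2 and at 0 in 8 heifers. Heifer 2 also had the lowest sum of the T cell identity list (4656 CPM, against up to 6542 CPM), with 11 of its 23 genes of at least 10 CPM in the median at their lowest, and the highest sum of the B cell list (2922 CPM, against 2132 to 2787 CPM in the others), with MS4A1, the B cell antigen CD20, at 1023 CPM and CD22 at 632 CPM. Of the heart list, heifer 2 held MYH7 at 3356 CPM, TNNI1 at 215 CPM and MYH6 at 20.4 CPM, and ACTC1 at 2.23 CPM. The part of the transcripts of the heart and B cell lists in the low CD3 level of heifer 2 was not tested. How many of all blood genes were lowest in heifer 2 was not counted, so the 11 of 23 genes have no background beside them. CD3E, CD3D and CD3G lie next to each other without overlap in the ARS-UCD2.0 annotation, in that order, and CD8B lies next to CD8A.

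The coreceptors split the heifers in another way. CD4, which marks helper T cells, was 95.0 CPM in heifer 7 and 119 CPM in heifer 3, had a median of 166 CPM and reached 189.8 CPM in heifer 9. CD2, the adhesion receptor, was 75.8 CPM in heifer 7, with a median of 133 CPM and at most 156 CPM in heifer 10. Heifer 7 stood below all others for both, as well as for LCK, the kinase that CD4 and CD8 carry (166 CPM, against a median of 219 CPM and a highest level of 271 CPM in heifer 9). CD8A ranged from 34.0 CPM in heifer 2 over a median of 49.2 CPM to 59.4 CPM in heifer 5. CD8B ranged from 20.6 CPM in heifer 9 over a median of 26.7 CPM to 31.6 CPM in heifer 1. The count of CD4 over that of CD8A went from 1.98 in heifer 7 to 5.14 in heifer 9, with a median of 3.18. This ratio was 3.64 ± 0.868 (SD, n = 5) in ET_D7 and 3.28 ± 1.16 (n = 5) in ET_D9, which overlap. ZAP70, the kinase that docks on the phosphorylated CD3 and zeta tails, ranged from 426 CPM in heifer 3 over a median of 475 CPM to 646 CPM in heifer 10, and heifer 7 was high for it (619 CPM).

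**Figure D1:**
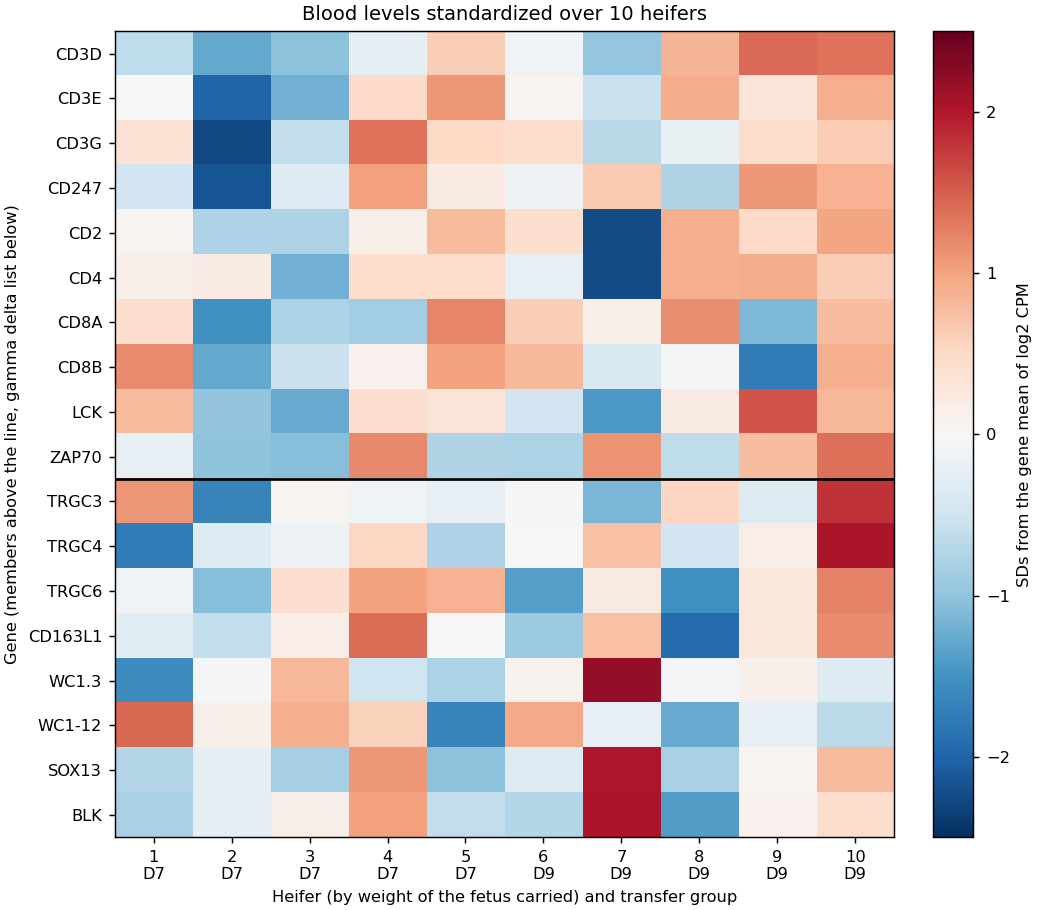
Levels in maternal blood of the 10 members (above the line) and of the 8 genes of the gamma delta T cell list with a median of at least 10 CPM (below it), each standardized over the 10 heifers, in SDs of log2 CPM. Columns are heifers 1 to 10 with their transfer group, D7 or D9. Heifer 2 is low for the CD3 subunits and CD247, and heifer 7 is low for CD2, CD4 and LCK and high for WC1.3, SOX13 and BLK.

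As a description over 10 heifers, whose values share library depth and composition, Pearson's r of log2 CPM was above 0 for 40 of the 45 pairs of members, with a median of 0.48. The closest pairs were CD2 and CD4 (r = 0.88), CD3E and CD3G (0.83) and CD3D and CD3E (0.82). CD4 and LCK followed at 0.80, and CD8A and CD8B were at 0.79. CD3D and CD3G were at 0.58, below CD3D with CD2 or with LCK (0.79 each). Without heifer 2, r was 0.94 for CD2 and CD4, 0.62 for CD3E and CD3G, 0.80 for CD3D and CD3E and 0.72 for CD8A and CD8B. CD247 and ZAP70 also varied together (0.78), while neither followed CD4 (-0.01 for both). The median over the 45 pairs was 0.32 without heifer 2 and 0.60 without heifer 7. Among 13708 genes that reached 10 counts in all blood libraries, those that followed the mean standardized level of CD3D, CD3E, CD3G and CD247 most closely were POLDIP2, MSH6, FUBP1, RBM15B, CALCOCO2, COX6B1, PINX1, IPO7, RRP36 and CHTF8, with r from 0.93 to 0.96. Without heifer 2 their r ran from 0.84 to 0.96. None of them is a gene of the T cell lists.

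Of the gamma delta T cell list, 12 of 16 genes could be matched. WC1.3, a gene of the WC1 family of coreceptors, was 264 CPM in heifer 7, with a median of 114 CPM and a lowest level of 63.3 CPM in heifer 1. SOX13, a transcription factor of gamma delta T cells, was 215 CPM in heifer 7 against a median of 99.7 CPM, and BLK, a kinase of B cells and some gamma delta T cells, 199 CPM against a median of 126 CPM. The heifer lowest in CD2, CD4 and LCK was thus the highest in these 3 genes. The list did not vary as one, since the gamma chain gene TRGC3 was 29.0 CPM there against a median of 37.0 CPM. Heifer 7 stood apart for genes of other cells as well. Of the neutrophil list, 6 of 8 genes of at least 10 CPM in the median were lowest in it, among them the chemokine receptor CXCR2 (76.0 CPM, median 179 CPM), while PADI4 was highest (426 CPM, median 87.4 CPM). Of the monocyte and macrophage list, 6 of 10 genes were lowest in it, CD68 among them (64.7 CPM, median 157 CPM), and the B cell list had its lowest sum (2132 CPM). MPO, a gene of myeloid progenitors, was 73.8 CPM against a median of 10.7 CPM. Of 38 T cell receptor signalling genes, 10 were highest in heifer 7 and 7 lowest, with the adaptors NCK2 (90.6 CPM, median 37.4 CPM) and SLA2 (84.2 CPM, median 42.9 CPM) among the former. These genes were singled out after their values were seen, and the part of the other cells in the levels of CD2, CD4 and LCK was not tested. How many of all blood genes were lowest or highest in heifer 7 was not counted. The counts of list genes therefore cannot be read as a trait of those cell types. The gamma delta list summed to 876 CPM in heifer 7 and to 419 to 665 CPM in the others. This sum includes WC1.3, SOX13 and BLK, at 264, 215 and 199 CPM in heifer 7, so it repeats these 3 genes. It does not show a rise of the rest of the list. The T cell identity list (5268 CPM, against 4656 to 6542 CPM) and the natural killer and cytotoxic list (693 CPM, against 722 to 889 CPM) were not raised in heifer 7. Over the 10 heifers, r between CD4 and WC1.3 was -0.76 and that between CD2 and WC1.3 was -0.72. Without heifer 7 these were -0.38 and -0.30, so that they rest largely on that heifer. ZAP70 followed SOX13 with r = 0.84, and 0.87 without heifer 7. WC1 genes form a multigene family, and how reads shared by its copies were counted is not stated, so single WC1 genes are uncertain. Of the receptor chains themselves, TRGC3, TRGC4 and TRGC6, constant segments of the gamma chain, had 13155, 6521 and 10218 counts over the 10 blood libraries, and TCRA, an alpha chain, was listed at 0 in all 36 libraries.

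The blood libraries were then compared along fetal weight, the question for which the study sampled maternal blood. None of the 10 members passed edgeR's quasi-likelihood test on a linear term for weight (0 of 10 at a Benjamini-Hochberg adjusted p-value under 0.05). Over all 16284 genes tested, 0% were called on this term, while 1578 genes, and CD3D alone among the members, had an unadjusted p under 0.05. DESeq2's Wald test called 108 genes and none of the members. CD3D was 70.0, 62.8, 65.5, 74.9 and 85.9 CPM in heifers 1 to 5 and 76.4, 66.1, 89.2, 97.9 and 97.1 CPM in heifers 6 to 10. Its 3 highest levels belonged to the 3 heifers with the heaviest fetuses, though heifer 5 was above heifers 6 and 7. The fitted slope was 0.12 on the log2 scale per 0.1 g of fetal weight, with a standard error of 0.0341, a 95% interval of 0.04 to 0.19 and an adjusted p of 0.383 by edgeR's quasi-likelihood test. It was 0.12 with depth class as a covariate and 0.11 to 0.13 when 1 heifer was left out. Without heifers 9 and 10, the farthest from the median weight, the slope was 0.08 with an unadjusted p of 0.213 in the same edgeR test.

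The other members had smaller slopes or wider intervals. ZAP70 and CD247 each had a slope of 0.09, with intervals up to 0.18 and adjusted p-values of 0.522 and 0.555 in edgeR's test. CD3E had a slope of 0.06 (interval -0.02 to 0.14), LCK of 0.06 (-0.03 to 0.15), CD2 of 0.06 (-0.06 to 0.19), CD4 of 0.05 (-0.07 to 0.17), CD8A of 0.04 (-0.09 to 0.17) and CD3G of 0.03 (-0.06 to 0.12). CD8B alone was below 0 (-0.03, interval -0.13 to 0.07). Thus 9 of 10 slopes were above 0, with a median of 0.06 beside 0.002 over all genes tested. The members vary together, so these 9 are not 9 separate observations. A spline of weight with 3 degrees of freedom called 0 of 10 members and 0.129% of all genes. The smallest p among the members was again that of CD3D (unadjusted p = 0.0320, adjusted p = 0.481 in edgeR's test).

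**Figure D2:**
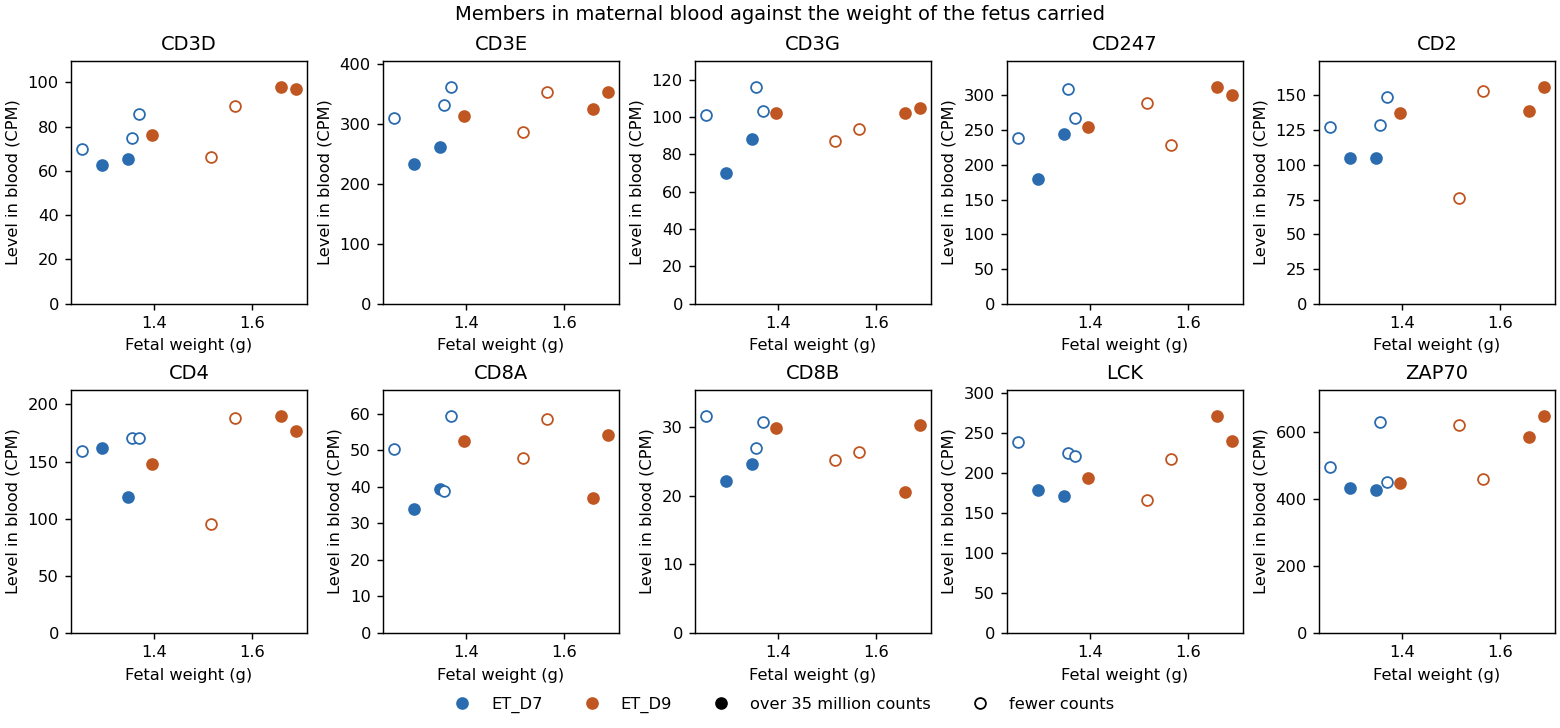
Level of each member in maternal blood (CPM, axes from 0) against the weight of the fetus carried (g), 1 point per heifer. Blue points are ET_D7 and orange points ET_D9, and filled points are the 5 deeper libraries. CD3D is highest in the 3 heifers with the heaviest fetuses, while CD2 and CD4 are lowest in heifer 7.

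Between the transfer groups, blood levels of the members overlapped for all 10 genes. The share of all blood genes that overlapped was not counted, so this is not read as a trait of the members. CD3D was 71.8 ± 9.10 CPM (SD, n = 5) in ET_D7 and 85.3 ± 13.8 CPM (n = 5) in ET_D9. CD3E was 300.1 ± 51.7 and 327 ± 28.3 CPM, and ZAP70 was 485 ± 83.9 and 551 ± 92.1 CPM. The lowest ET_D9 heifer was below the highest ET_D7 heifer for each of these genes. CD4 (156 ± 21.4 and 159 ± 39.8 CPM) and CD3G (95.7 ± 17.4 and 97.9 ± 7.27 CPM) had nearly the same means. edgeR's test called 0 of 10 members and 0% of the 16284 genes, with 1237 genes and none of the members at an unadjusted p under 0.05, and DESeq2's test called 65 genes and no member. The log2 difference of ET_D9 over ET_D7 ranged from -0.04 for CD8B to 0.25 for CD3D. The interval of the latter ran from -0.02 to 0.52, and those of the other 9 members lay within -0.35 and 0.53.

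**Figure D3:**
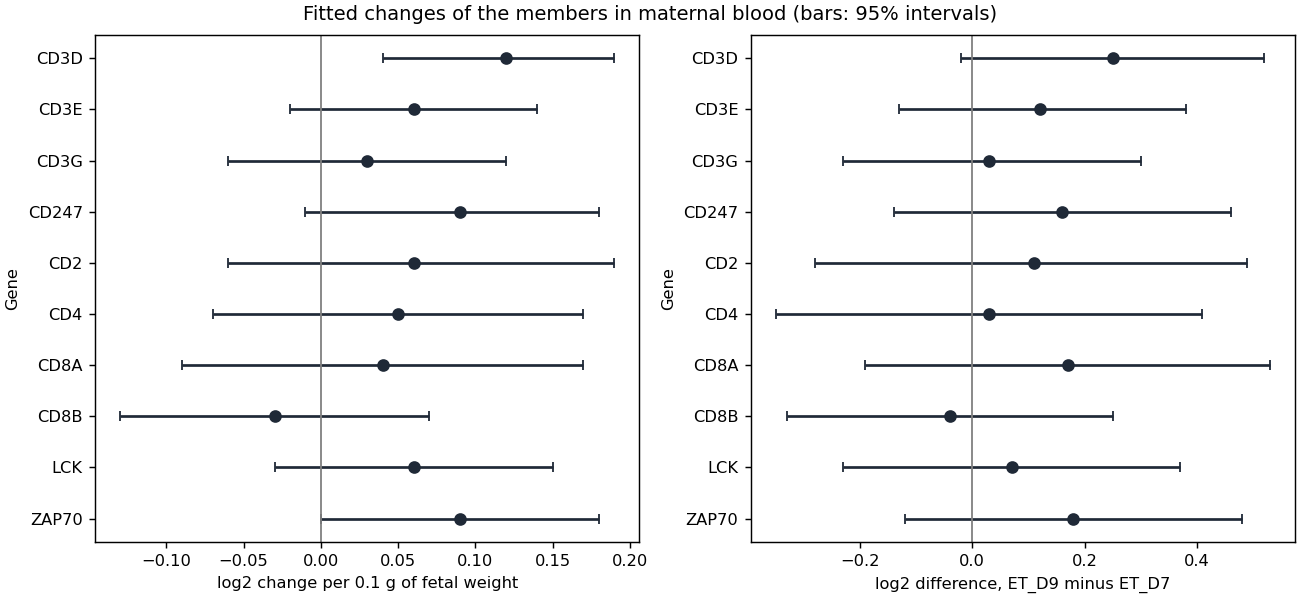
Fitted change of each member in maternal blood with 95% intervals, on the left per 0.1 g of fetal weight and on the right between ET_D9 and ET_D7, both in log2 units. The interval of CD3D lies above 0 on the left (0.04 to 0.19), and all 10 intervals on the right span 0.

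The depth of the blood libraries fell into 2 classes, 5 libraries of 40516154 to 40812354 counts and 5 of 26602415 to 30393051 counts, with 3 ET_D9 heifers in the deeper class and 2 in the other. CD3D was 79.9 ± 16.8 CPM (n = 5) in the deeper class and 77.2 ± 9.99 CPM (n = 5) in the other, and CD3E was 298 ± 48.3 and 329 ± 31.1 CPM. The classes overlapped for both genes.

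The wider T cell genes in blood gave no call either. Of 40 further genes of T cell receptor signalling, 0 passed on the linear weight term and 3 had an unadjusted p under 0.05 in edgeR's test: CSK, the kinase that inactivates LCK (slope 0.05), LAT, the scaffold that ZAP70 phosphorylates (0.08), and SIT1, an adaptor that dampens the signal (0.09). Their adjusted p-values in that test were 0.464, 0.495 and 0.514. The list had 26 of 40 slopes above 0 and a median of 0.01. Of 24 T cell identity genes, 0 passed and 4 had an unadjusted p under 0.05. The 3 smallest p-values were those of CD69, an early activation marker (slope 0.16, standard error 0.0459, adjusted p = 0.374 in edgeR's test), CD7 (0.17) and KLF2, a factor of T cell quiescence (0.10). Of 11 gamma delta genes tested, 0 passed. TRGC4 (0.09) and WC1-12 (-0.22) had unadjusted p-values of 0.0316 and 0.0326 in edgeR's test, in opposite directions, and SOX13 had a slope of 0.12 with a standard error of 0.0923. Neither did any gene of the B cell, monocyte, neutrophil, platelet, erythroid or natural killer lists pass. The summed erythroid list ranged from 277 to 9896 CPM over the blood libraries, the neutrophil list from 1436 to 2764 CPM and the monocyte list from 724 to 940.1 CPM, and the part of this composition in the values above was not tested.

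In the fetal organs every member was below its level in blood by a margin that differed widely between the members. All 10 members were called higher in blood than in heart, gonads and liver by edgeR's test. Of all 20632 genes tested, 80.1% were called in either direction between blood and heart, 78.0% between blood and gonads and 81.7% between blood and liver, so that a call by itself is common here. The median log2 difference of the members was 8.19, 6.97 and 7.30, beside -0.109, -0.162 and -0.339 over all genes, which went in both directions. The lists of other lymphocytes had differences of the same order or larger, with medians of 9.02, 9.03 and 7.86 for 12 B cell genes and 8.21, 7.18 and 6.07 for 18 natural killer and cytotoxic genes. Medians were 8.18, 10.42 and 3.63 for 10 neutrophil genes, and smaller, at 4.36, 4.37 and 0.61, for 10 monocyte and macrophage genes. Blood came from the dam and was prepared with another library kit (SMARTer Stranded) than the organs (TruSeq stranded mRNA), so that tissue, animal and kit cannot be told apart in this contrast. Normalized over all tissues, the lowest blood library exceeded the highest organ library 403-fold for CD2, 145-fold for CD3E, 81.0-fold for CD3D, 68.2-fold for ZAP70 and 57.7-fold for CD3G. It exceeded it 33.3-fold for CD4, 31.2-fold for LCK, 4.13-fold for CD247, 4.09-fold for CD8B and 2.46-fold for CD8A. The highest organ library was a liver library for CD2, CD3D, CD3G, CD247, CD8A and CD8B.

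**Figure D4:**
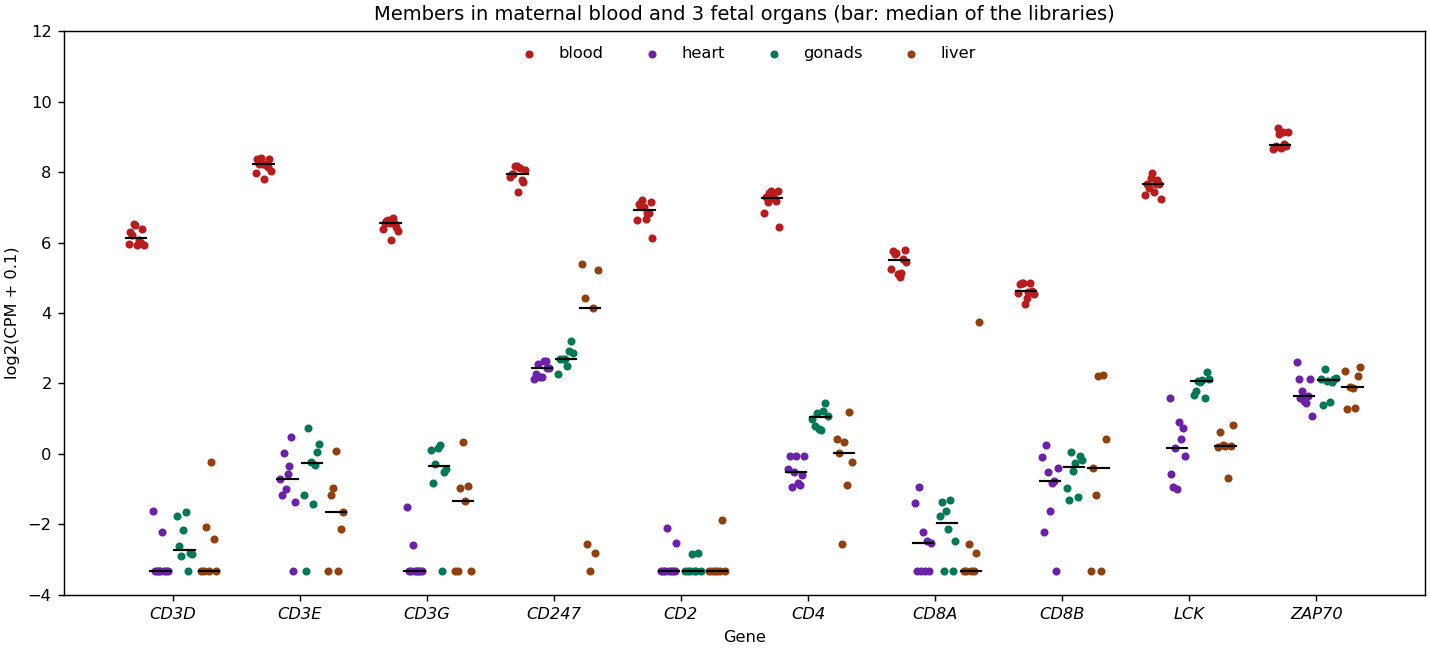
Level of the 10 members in each library of blood, heart, gonads and liver, as log2(CPM + 0.1) normalized over all tissues, with a bar at the median. Near-identical libraries are shown as 1 point. Blood lies above all organ points for every gene, and the liver points of CD247 fall into a high and a near-0 set.

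Among the organs, CD2 and CD3D were close to absent. CD2 had 6 counts in all 9 heart libraries together, 4 in the 9 gonad libraries and 4 in the 8 liver libraries, and was at 0 in 7 libraries of each organ. CD3D had 10, 40 and 14 counts in the same sets. Neither reached the filter of 10 counts in 4 libraries, so 8 of 10 members could be tested between organs. CD3G had 325 counts in the 9 gonad libraries, 11 in heart and 42 in liver. CD3E was 0.556 ± 0.378 CPM (SD, n = 9) in heart, 0.712 ± 0.501 CPM (n = 8) in gonads and 0.294 ± 0.331 CPM (n = 7) in liver, with at most 90 counts in a library. These 3 ranges overlapped, and none of the differences of CD3E between organs was called.

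The proportions of the members in heart and gonads were not those of blood. CD3D, CD3E and CD3G together took 24.8% to 29.0% of the counts of the 10 members in blood, against 0% to 10.2% in heart and 0% to 17.1% in liver. In gonads this share was at least 3.50%, with a median of 9.03%. CD247, LCK and ZAP70 took 48.4% to 61.1% in blood, 76.1% to 95.2% in heart and 74.5% to 81.6% in gonads, so that heart and gonad libraries did not overlap with blood for either share. Liver ran from 37.2% to 97.5%. CD8A and CD8B, which pair on cytotoxic T cells, also kept another proportion: CD8A was 59.1% to 69.0% of their joint count in blood, 0% to 33.3% in the 8 heart libraries with a count and 0% to 48.6% in gonads. In the 6 livers with a count it ran from 0% to 96.4%, with a median of 8.79%. The pooled liver share of 65.1% rests on the near-identical livers of fetuses 1 and 2, which held 244 and 245 of 491 CD8A counts. It is therefore not read beside the pooled 63.7% of blood. Shares in the organs rest on few counts, 141, 707 and 101 for the CD3 subunits summed over heart, gonads and liver. Blood and organs also differ in library kit and animal, which cannot be told apart from tissue in these shares. PTPRC, the leukocyte antigen CD45, was 2.89 ± 0.486 CPM (n = 9) in heart, 1.94 ± 0.389 CPM (n = 8) in gonads and 3.02 ± 0.753 CPM (n = 7) in liver. In blood, scaled over the blood libraries alone, it was 3474 to 4232 CPM. RAG1, needed to rearrange the receptor genes, had 0 CPM in every heart, gonad and liver library, and RAG2 and DNTT had means of at most 0.153 CPM.

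Between gonads and heart, CD3G, CD4 and LCK were called, each higher in gonads. The heart against gonads contrast called 3 of the 8 members tested and 56.9% of 19489 genes, so the share of members is not above that of all genes. LCK was 3.85 ± 0.670 CPM (n = 8) in gonads, with 2.90 to 4.88 CPM, and 0.398 to 2.88 CPM in heart, with a median of 1.03 CPM (n = 9), so the organs did not overlap. CD4 was 1.49 to 2.61 CPM in gonads and 0.418 to 0.867 CPM in heart, again without overlap. The share of all genes without overlap between these organs was not counted. CD3G was at 0 in 7 of 9 heart libraries and in 1 gonad library, that of fetus 1, and otherwise at 0.460 to 1.09 CPM in gonads. The log2 differences of heart over gonads were -1.61 for LCK (standard error 0.334), -1.56 for CD4 (0.371) and -3.86 for CD3G (1.03), with adjusted p-values of 0.000206, 0.000888 and 0.00247 by edgeR's quasi-likelihood test. ZAP70 (-0.12, interval -0.60 to 0.37) was not called. CD247 was 6.61 ± 1.33 CPM in gonads and 5.17 ± 0.719 CPM in heart; its difference of -0.29 was not called with the liver libraries in the fit and was called at -0.34 without them (adjusted p = 0.0277, edgeR).

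Liver against gonads called 3 of the 8 members and 72.6% of all genes, and liver against heart 2 of 8 and 67.3%. LCK was 1.13 ± 0.361 CPM (n = 7) in liver, lower than in gonads by -1.77 on the log2 scale (adjusted p = 0.000142, edgeR), and was not called against heart (-0.16, interval -0.88 to 0.56). CD4 was 0.971 ± 0.677 CPM in liver, with a log2 difference from gonads of -0.99 (adjusted p = 0.0272, edgeR). With the fetus as a block it was -1.28 with an adjusted p of 0.0533. CD3G was 0.330 ± 0.417 CPM in liver and was called higher than in heart by 2.79 (adjusted p = 0.0223), but not with the block (2.73, adjusted p = 0.114) and not without the 3 ET_D9 livers (0.49, adjusted p = 0.778), all by edgeR. CD247 was 16.9 ± 17.8 CPM in liver and was not called over heart (1.63, adjusted p = 0.0608) or over gonads (1.34, interval -0.27 to 2.94), but was called over both without the 3 ET_D9 livers (2.52 and 2.17), again by edgeR. Over heart it was also called with DESeq2's size factors (1.80, adjusted p = 0.0412), by DESeq2's Wald test (adjusted p = 0.0411), with mitochondrial genes out of the normalization (1.71, adjusted p = 0.0499) and with every library counted separately (1.81, adjusted p = 0.0293). CD8B over heart (1.65, adjusted p = 0.0620, edgeR) was called with those size factors (adjusted p = 0.0452) and by DESeq2 (adjusted p = 0.0282). ZAP70 was called in none of the contrasts, with 2.33 to 5.48 CPM in liver (n = 7), 3.92 ± 0.888 CPM in gonads and 3.45 ± 1.19 CPM in heart, with intervals of the log2 differences within -0.60 and 0.59.

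CD8A in liver was carried by a single pair of libraries. It had 244 and 245 counts in the livers of fetuses 1 and 2, which are near-identical and stand for 1 sample, and 0, 0, 0, 1, 0 and 1 counts in the livers of fetuses 3, 4, 5, 8, 9 and 10. The calls of CD8A over heart (adjusted p = 0.0118, edgeR) and over gonads (log2 difference 3.62, adjusted p = 0.0201) therefore rest on that sample. A fit without it, which also left out the near-identical gonads of fetuses 6 and 8, gave differences of -2.44 and -2.92. Neither was called there (adjusted p = 0.102 and 0.0509, edgeR). CD8B did not follow CD8A: it had 108 and 85 counts in the livers of fetuses 8 and 9 and 0 to 37 in the other 6. Another 8 genes had the pattern of CD8A, with at least 200 counts in fetuses 1 and 2 and at most 2 in all other livers (9 in all).

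CD247 in liver separated the transfer groups. It had 655, 728, 672, 235 and 627 counts in the livers of fetuses 1 to 5 (ET_D7) and 1, 0 and 1 counts in those of fetuses 8, 9 and 10 (ET_D9). All ET_D7 livers were thus above 200 counts and all ET_D9 livers at or near 0, and the heart (78 to 152 counts) and gonads (242 to 442 counts) showed no such split. Summed and divided by total counts, with the near-identical pair counted once, ET_D7 exceeded ET_D9 818-fold, with an exact 95% interval of 226 to 6762 from counting error alone, since ET_D9 held 2 counts. CD247 passed the filter of 10 counts in 4 libraries only through the 4 ET_D7 samples, so its call in liver follows in part from the filter. With no filter, edgeR's test gave a log2 difference of -9.57 (adjusted p = 0.000149), a value that depends on the prior count of the fit. The same holds for the values from the fit over all organs below. With the filter, without any 1 of the 4 ET_D7 samples CD247 fell under the filter and was not tested. Without 1 of the 3 ET_D9 samples it was called again. This was the only member called of 5 tested in liver, where 2.20% of 16211 genes were called. In the fit over all organs, where every heart and gonad library held CD247, the difference between the transfer groups was itself larger in liver than in heart (-9.36, adjusted p = 9.01e-11, edgeR) and than in gonads (-9.80, adjusted p = 9.21e-11). Between liver and heart 1 of 8 members and 8.36% of all 19489 genes were called on this difference, between liver and gonads 1 of 8 and 6.87%, and between heart and gonads 0 of 8 and 0%. Many liver genes behaved in this way: 66 genes had at most 2 counts in every ET_D9 liver and at least 200 in every ET_D7 liver, 2 genes had the reverse, and 429 liver genes were in every library either at most 2 or at least 200, with both kinds present, against 3 such genes in heart, 3 in gonads and 5 in blood. What produces these steps was not tested, and whether the deposited liver counts are the unaltered output of counting could not be settled from the table, which limits what the liver values of CD247 and CD8A mean. In the same livers LCK (1.17 ± 0.506 CPM in 4 ET_D7 samples and 1.08 ± 0.0184 CPM in 3 ET_D9 samples) and ZAP70 (3.80 ± 1.68 and 3.89 ± 0.515 CPM) overlapped between the groups.

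**Figure D5:**
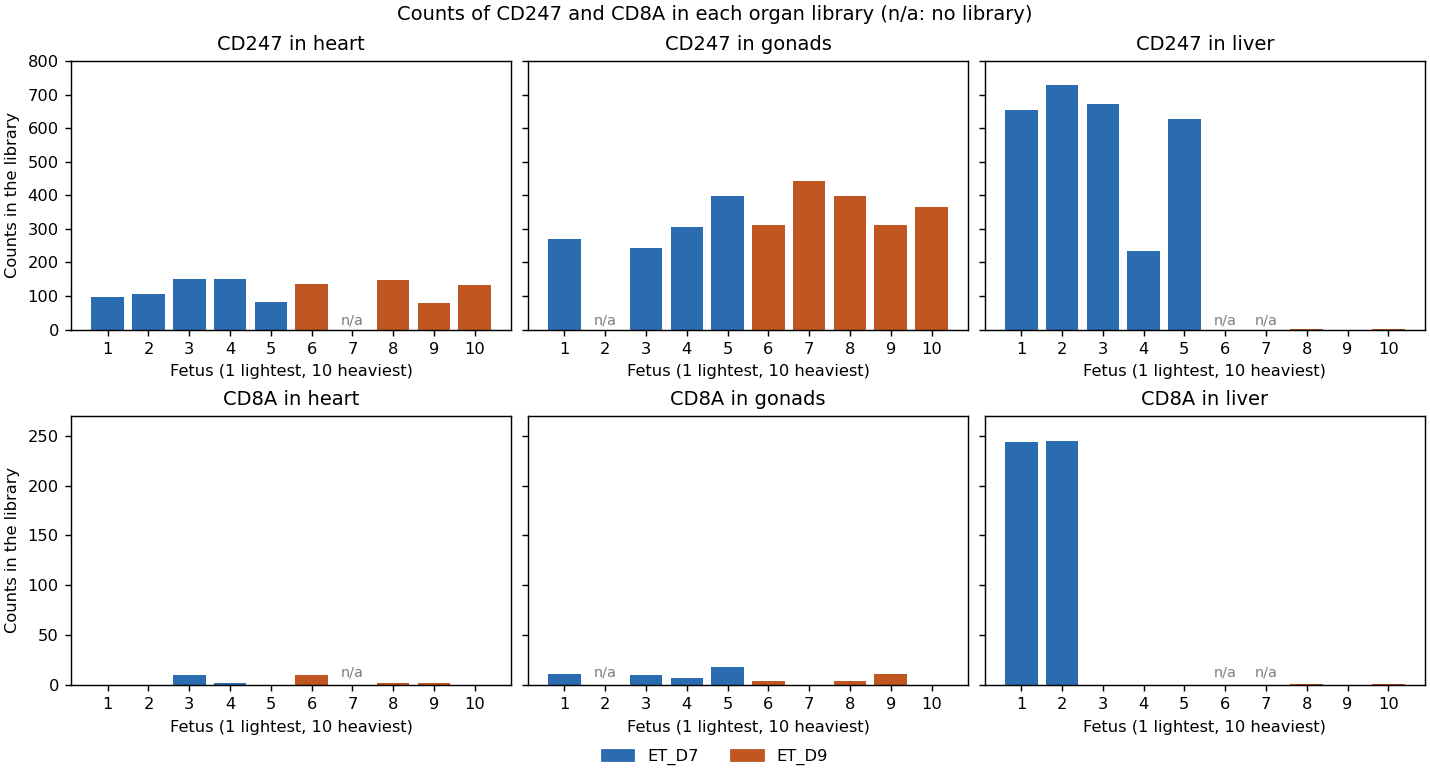
Counts of CD247 (top) and CD8A (bottom) in each heart, gonad and liver library, by fetus from lightest to heaviest, blue for ET_D7 and orange for ET_D9 (n/a, no library). Liver counts of CD247 are 235 to 728 in ET_D7 and 0 or 1 in ET_D9, and CD8A is high in the livers of fetuses 1 and 2 only.

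In gonads and heart no member was called between the transfer groups, by edgeR or by DESeq2. In gonads, 0 of 8 members and 0.0113% of 17670 genes were called by edgeR, while 4 members and 13.0% of all genes had an unadjusted p under 0.05. These were CD3E, CD8B, LCK and ZAP70, all higher in ET_D9. CD3E was 0 to 0.710 CPM in 4 ET_D7 samples and 0.751 to 1.55 CPM in 4 ET_D9 samples, which did not overlap (log2 difference 1.82, standard error 0.748, adjusted p = 0.346 in edgeR's test). The share of all gonad genes without overlap was not counted. LCK was 3.38 ± 0.557 and 4.32 ± 0.385 CPM. In heart, 0 of 6 members and 0.0492% of 16250 genes were called, with 2 members and 24.6% of all genes at an unadjusted p under 0.05. They were LCK and ZAP70, and here both were lower in ET_D9. LCK was 0.572 to 2.88 CPM in 5 ET_D7 hearts and 0.398 to 1.03 CPM in 4 ET_D9 hearts, with an overlap (log2 difference -1.31, adjusted p = 0.136 in edgeR's test). The heart of fetus 3 held the highest LCK and ZAP70 (2.88 and 5.96 CPM), while its PTPRC was 2.38 CPM, against 2.39 to 3.75 CPM in the other hearts. The difference of the transfer effect on LCK between heart and gonads was -1.66 (interval -2.83 to -0.48) and did not pass (adjusted p = 0.310, edgeR).

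Along fetal weight, no member was called in any organ by edgeR's linear term: 0 of 6 in heart, where 6.78% of all genes were called, 0 of 8 in gonads (0%) and 0 of 3 in liver (0.0575%). The unadjusted p of every member tested was above 0.05. DESeq2's test called no member in the 3 organs either. CD247 was not among the liver genes tested here, since the near-identical livers of fetuses 1 and 2 were left out of this fit and it then reached 10 counts in only 3 livers.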

How the data were processed

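Per the submitters' notes and the study's methods, the authors trimmed reads with Trimmomatic, mapped them to ARS-UCD1.3 with STAR 2.7.0b, summarised them over genes by featureCounts (Subread 2.0.3) and deposited whole-number counts for 36 libraries. Counting options for strand and multi-mapping are not given in the sources used here. Symbols came from the RefSeq table of ARS-UCD2.0 (31630 of 35092 identifiers matched), without coordinates. The members and gene lists were chosen with earlier results of these data known.

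Counts were fitted with edgeR 4.0.16 (TMM, quasi-likelihood test, R 4.3.3) keeping genes that reached 10 counts in 4 or more libraries, and p-values were adjusted over all genes by Benjamini-Hochberg. Standard errors are the absolute log2 change over the root of F. Tissues, transfer groups, a linear weight term (per 0.1 g) and a spline of weight (3 degrees of freedom) were tested. DESeq2 1.42.0 was an alternative, beside other normalizations, filters and left-out libraries. The scripts were tested on simulated data.

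Near-identical libraries (median chi-square 0.000646 and 0.256 of that expected, 3.46 to 133 for other pairs of a tissue) were averaged and counted once, and were left out of organ weight fits, which departs from the planned fit of every library. Organs of 1 fetus are paired by design. Deviations of the same fetus had a mean r of 0.12 between gonads and heart, 0.07 between gonads and liver and 0.01 between heart and liver. Dams and fetuses are different animals. Replicates are single animals, and p-values measure the spread between them. All members were named. From each list, genes were named by level or by smallest p. Genes most like CD3 were ranked by r. One gene of a list is not reported here.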

Additional observations from a re-analysis of the deposited data

Results flagged for a closer look

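CD2 in the blood of heifer 7, in ET_D9, was 75.8 CPM, far from the 137 to 156 CPM of the other 4 heifers of its group. CD4 in the blood of heifer 3, in ET_D7, was 119 CPM, against 159.6 to 171 CPM in the other 4. These were 2 of 53 groups of 4 or 5 libraries examined for a library that stands apart by Dixon's test, and chance gives about 1 in 20. The difference of CD247 between ET_D9 and ET_D7 was larger in liver than in heart (-9.36 on the log2 scale, standard error 0.570) and than in gonads (-9.80, standard error 0.579), the only 2 of 24 such differences between organs over the members that passed edgeR's quasi-likelihood test (adjusted p = 9.01e-11 and 9.21e-11). Of all genes, 8.36% and 6.87% were called on these differences. The ET_D9 livers held 2 counts of CD247, so both sizes depend on the prior count of the fit. Their standard errors therefore do not give their precision. Counting error alone gave an interval of 226 to 6762 for the fold difference in liver.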

How the results depend on the processing

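Of 1116 values recomputed for 106 results, 1056 kept their direction and their side of the threshold, and a further 34 took the other sign, 4 of them for called members, all CD8A in liver. With the fetus as a replicate block, in which each near-identical pair is a level of its own, 1 member was called between liver and gonads and 0 between liver and heart. Under this pairing CD8A was -3.10 and -1.72, CD3E and ZAP70 between heart and gonads 0.11 and 0.03, and ZAP70 between liver and heart -0.07. The block changed no other count of calls. Without both libraries of each near-identical pair, 1 member was called in either liver contrast, CD8A was -2.92 over gonads and -2.44 over heart, and ZAP70 was -0.03 over heart. Without the 3 ET_D9 livers, 5 members were called between liver and gonads, and CD8B was -0.33 over gonads and -0.04 over heart. With DESeq2's size factors, which moved the median of all genes between liver and heart from 0.031 to 0.169 and between liver and gonads from 0.033 to 0.151, 4 members were called between liver and heart, and ZAP70 over gonads was 0.07. It was 0.08 by DESeq2's Wald test and 0.01 with every library counted separately. On the weight term in liver, 1 member was called with no filter and 1 with every library counted separately. In blood, without the 2 heifers farthest from the median weight, the slopes of CD3G, CD4, LCK and LAT were -0.01, -0.03, -0.05 and -0.03, and with transfer group as a covariate that of CD8A was -0.03. Between the transfer groups in blood, scaling by library size alone gave CD3G -0.02 and CD4 -0.03, and depth class as a covariate gave CD8B 0.00. Leaving out 1 heifer at a time, slopes ranged from -0.01 to 0.04 for CD3G and from -0.08 to 0.01 for CD8B, and differences between transfer groups from -0.06 to 0.11 for CD3G, -0.06 to 0.16 for CD4, -0.11 to 0.03 for CD8B and -0.03 to 0.15 for LCK. Leaving out 1 liver sample, 0 to 1 members were called between transfer groups. The cause of these changes was not tested. The alternatives on near-identical libraries and on ET_D9 livers, and the fit of heart and gonads alone, were chosen after seeing the data. DESeq2 was not run on the spline. Organ levels under about 1 CPM rest on few counts.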

Other observations

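Genes of thymocytes and blood progenitors were measured in the same organs. CD34, a marker of blood progenitors and endothelium, was 366 ± 77.5 CPM (SD, n = 7) in liver, 155 ± 37.0 CPM (n = 9) in heart and 31.6 ± 5.13 CPM (n = 8) in gonads. PTCRA, the partner of the beta chain in early thymocytes, was 0.701 ± 0.503 CPM in heart and 0.0504 ± 0.0890 CPM in liver, with a higher mean in gonads than in either. CCL25, a chemokine that attracts thymocyte precursors, was 33.3 ± 5.12 CPM in heart, 35.1 ± 5.83 CPM in gonads and 43.5 ± 7.50 CPM in liver. GATA3, a T cell factor that is also expressed in the nephric duct, was 34.0 ± 5.47 CPM in gonads, 2.13 ± 0.869 CPM in heart and 2.98 ± 1.49 CPM in liver. GATA3, singled out after its values were seen, belongs to the T cell identity list.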
